A study of Mus musculus with 36 samples.

Results

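The 41 genes described here encode proteins that sense or repair DNA damage, and they are 41 of the 49585 gene identifiers in the count table. The rule that selects them lists their symbols and sets no threshold on a measured value, though the list was drawn up with earlier results of these data known. Each symbol matched 1 identifier. The set holds 4 mismatch repair genes, 16 homologous recombination genes, 5 Fanconi anaemia genes, 7 end joining genes, 2 PARP genes and 7 damage signalling genes. Neoplastic cells were sorted by EGFP from mouse lung tumours driven by EML4-ALK, a fusion kinase of human lung cancer, and their RNA was sequenced. There were 4 groups of 9 tumours: Variant 1 of the fusion with the control guide sgNeo, Variant 1 with the guide sgSetd2, and Variant 3 with each of the same guides. Setd2 encodes a histone methyltransferase. Each title carries 1 of 12 codes, 3 per group with 3 tumours each, whose meaning is not stated. The strain, age, sex and time after initiation are not in the labels, nor is the way the fusion was made. A gene-level count does not show whether the targeted allele was edited.

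A double-strand break is repaired by homologous recombination, which copies an intact sister chromatid and is used in S and G2 phase, or by end joining, which religates the ends in any phase. Mismatch repair corrects replication errors, the Fanconi anaemia proteins unhook crosslinked strands, and the kinases ATM and ATR with their targets CHEK1, CHEK2 and WEE1 hold the cycle while repair proceeds. SETD2 trimethylates histone H3 at lysine K36, a mark that the mismatch factor MSH6 binds and that is also tied to the recruitment of the end resection factor CtIP, encoded by Rbbp8. Cells without SETD2 have been described as sensitive to inhibitors of WEE1.

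The promoters of 5 members are shown because their genes lie at the ends of the pattern that the tumours show below. Those of Bard1, Rad54l and Fancb belong to the members with the largest slope on a list of cell cycle genes, and those of Xrcc5 and Xrcc4 to the members whose slope lay nearest 0, among the members for which the promoter table had an entry. Each sequence is RefSeq's for build GRCm38.p6, read 5′ to 3′ on the gene's strand, and is the longest stretch of the 250 bases before the start that is not annotated as UTR. Capitals mark matches, on either strand, to an E2F-type site (TTTGGCGC, TTTCCCGC or TTTCGCGC), to the CHR element TTTGAA or to the CCAAT box. E2F sites, CHR elements and CCAAT boxes are known from promoters of genes expressed in S, G2 and M phase.
Bard1, chr1:71103147-71103222, minus strand: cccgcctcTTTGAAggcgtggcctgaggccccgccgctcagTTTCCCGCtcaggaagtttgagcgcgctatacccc
Rad54l, chr4:116123691-116123940, minus strand: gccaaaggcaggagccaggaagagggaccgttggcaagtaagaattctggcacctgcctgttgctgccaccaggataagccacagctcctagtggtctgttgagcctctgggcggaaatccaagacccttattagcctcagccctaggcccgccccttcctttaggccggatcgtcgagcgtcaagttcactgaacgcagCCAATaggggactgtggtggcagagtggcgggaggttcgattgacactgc
Fancb, chrX:164980376-164980591, plus strand: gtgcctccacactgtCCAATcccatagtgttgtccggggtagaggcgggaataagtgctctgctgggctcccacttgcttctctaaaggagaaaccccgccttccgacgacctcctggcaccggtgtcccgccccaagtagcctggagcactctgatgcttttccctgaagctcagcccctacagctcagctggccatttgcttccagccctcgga
Xrcc5, chr1:72307171-72307420, plus strand: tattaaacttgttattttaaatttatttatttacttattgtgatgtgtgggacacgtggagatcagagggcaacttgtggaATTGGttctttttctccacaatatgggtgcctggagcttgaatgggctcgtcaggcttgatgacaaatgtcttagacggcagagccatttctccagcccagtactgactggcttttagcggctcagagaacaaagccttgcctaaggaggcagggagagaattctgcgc
Xrcc4, chr13:90089781-90089858, minus strand: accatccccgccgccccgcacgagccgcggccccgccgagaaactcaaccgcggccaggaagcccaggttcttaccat
In the Bard1 stretch the CHR element began 242 bases and the E2F-type site 209 bases before the start. The Rad54l stretch had a CCAAT box 50 bases before the start, and the Fancb stretch had its CCAAT box 201 bases before it. The Xrcc5 stretch had a CCAAT box on the opposite strand, 169 bases before the start, and the printed Xrcc4 stretch had no match. The table held a window of 300 bases for 31 of the 41 members and for 27025 genes in all. An E2F-type site lay in the window of 8 of the 31 members (25.8%) and in 1.91% of all windows. A CCAAT box lay in 17 members (54.8%, against 37.9% of all) and a CHR element in 2 (6.45%, against 18.1% of all). The share with an E2F-type site was 2 of 7 among members that passed the slope test below and 6 of 24 among those that did not. These matches of letters are a description and show no binding.

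Total counts per tumour ran from 17893071 to 137152480. Levels are given in CPM, counts relative to the TMM-scaled library total, for the summed counts of each code, in the order CE467, CE468 and CE472 (Variant 1 sgNeo), CE475, CE479 and CE483 (Variant 1 sgSetd2), CE428, CE429 and CE433 (Variant 3 sgNeo), and CE450, CE454 and CE456 (Variant 3 sgSetd2). Setd2 itself lay at 53.5 to 78.5 CPM in the Variant 1 sgNeo codes and at 34.5 to 39.0 CPM in the Variant 1 sgSetd2 codes. In Variant 3 it lay at 45.2 to 65.7 CPM with sgNeo, at 33.6 and 43.8 CPM in CE450 and CE454, and at 59.8 CPM in the code labelled sgSetd2 CE456, which is inside the sgNeo range. The summed alveolar type 2 markers, 6 genes of the surfactant-secreting lung epithelium, were at 25950 CPM or more in every tumour, while the 6 macrophage markers summed to at most 22.9 CPM and the 6 T and B cell markers to at most 24.0 CPM. The 5 fibroblast markers summed to medians of 5.52, 23.3, 8.99 and 43.4 CPM in the 4 groups in the order above. Their highest sums in a tumour were 380.4, 166.8, 35.92 and 96.05 CPM in the same order. Ddx3y, a Y-linked gene, was above 50 CPM in CE475, CE429, CE433 and CE450 and at most 0.0182 CPM in the other codes. In bulk samples, fewer cells of a type and less RNA per cell cannot be told apart.

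Compared per kilobase of exon, the members spanned a wide range of levels. Xrcc5, the Ku80 subunit of the end-binding heterodimer, was highest at 33.5 CPM per kb, followed by Nbn (16.5), a subunit of the break-sensing MRN complex, and H2afx (14.03), the histone variant phosphorylated at breaks. Xrcc6, the Ku70 partner of Ku80, lay at 9.86, Wee1 at 9.28, Parp2 at 8.35, Rad50 at 7.43 and Msh6 at 7.25 CPM per kb. Neighbours in this order, such as Parp2, Rad50 and Msh6, overlapped in their ranges over codes. At the low end stood Rad51b at 0.137, Polq at 0.126 and Bard1 at 0.0553 CPM per kb, and these 3 genes had no count in 7, 9 and 16 of the 36 tumours. Brca2 (0.313), Fanca (0.263) and Blm (0.434) were also low. All 41 members passed the filter on low counts.

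With sgSetd2 in Variant 1, 36 of the 41 members had a negative log2 fold change against sgNeo, with a median of -0.59 and a range of -2.94 to 0.26, where the median of all 20009 genes tested was -0.01. Of the members 1 fell and 0 rose at an adjusted p under 0.05 (edgeR's quasi-likelihood test with Benjamini-Hochberg adjustment over all genes). The same test called 1.42% of all genes in either direction and 0.72% lower, so that a single call among 41 members is near the background share. At an unadjusted p under 0.05 there were 20 members, against 15.9% of all genes. DESeq2, which called 7.5% of all genes, called 8 members, namely Blm, Brca1, Brca2, Exo1, Fanca, Fanci, Rad51b and Xrcc2. With a stricter filter edgeR called 3.39% of all genes and 2 of the 40 members left, Blm and Exo1. Below, a member is said to pass by edgeR's test as first described unless another tool or setting is named. All 3 sgSetd2 codes lay below all 3 sgNeo codes in 17 members, against 12.3% of all genes, and above them in 0, against 11.7%. Medians by class were -0.44 for mismatch repair, -0.83 for homologous recombination, -1.32 for the Fanconi anaemia genes, -0.15 for end joining, -0.55 for PARP and -0.63 for signalling. The p-values measure the spread between codes, which the labels do not say to be animals or cultures.

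**Figure D1:**
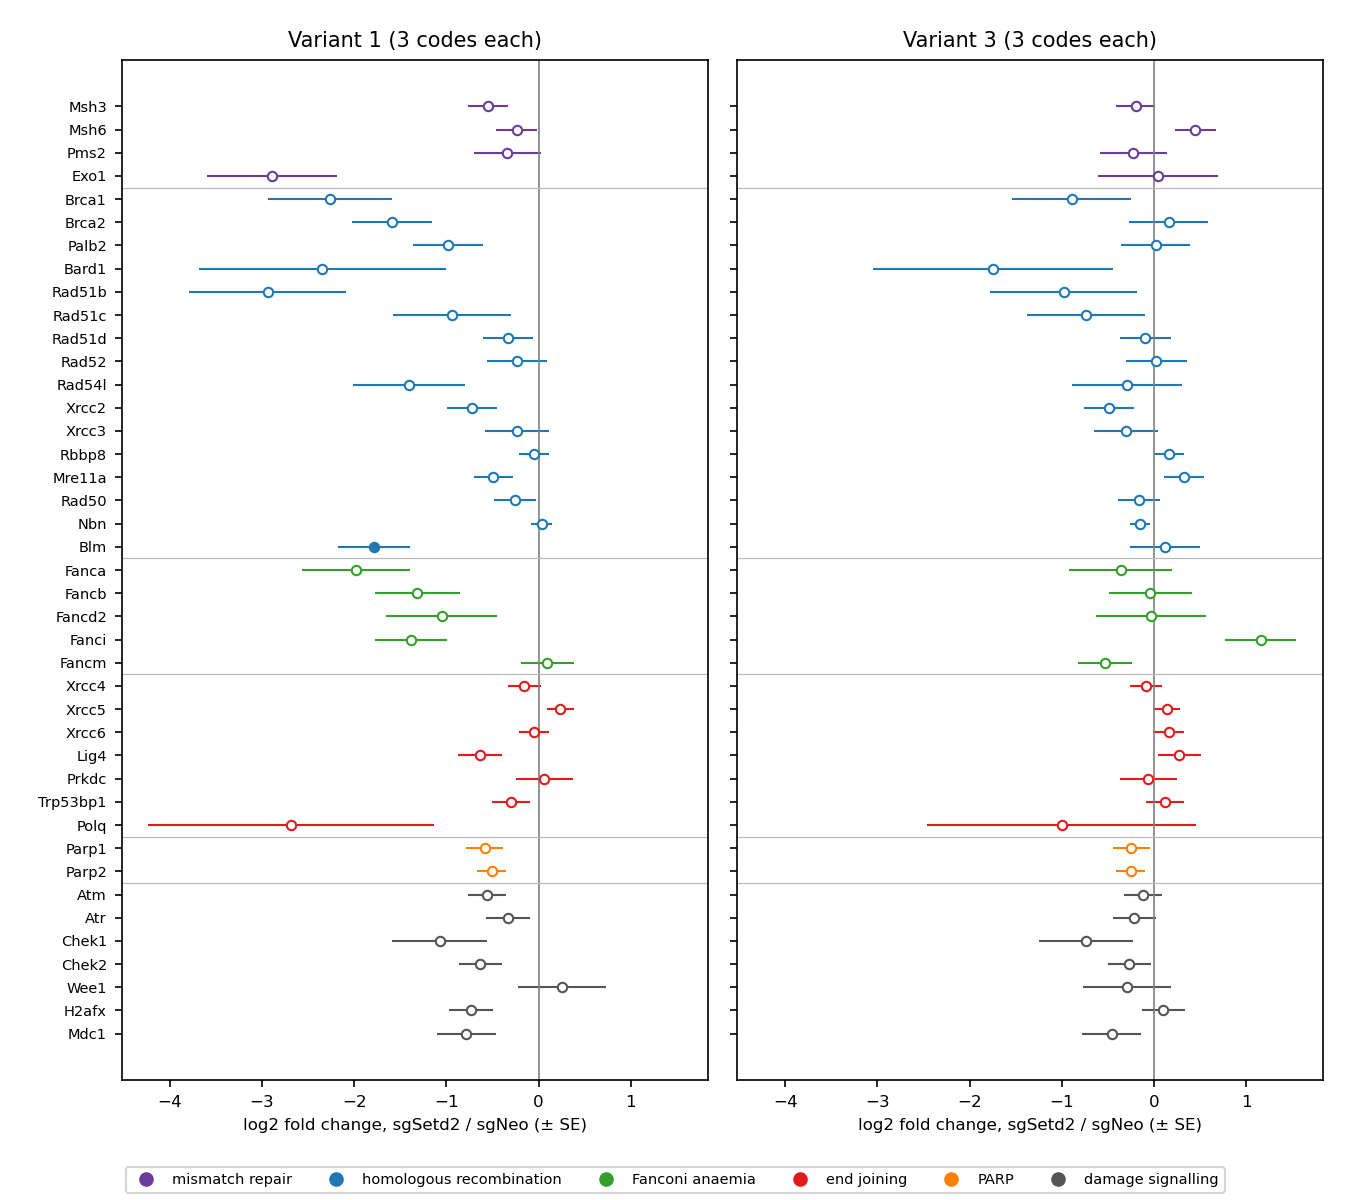
Log2 fold change of sgSetd2 against sgNeo for each of the 41 members, with bars of 1 SE, in Variant 1 (left) and Variant 3 (right), grouped by class; filled points passed the test at an adjusted p under 0.05. In Variant 1, 36 of 41 points lie left of 0 and only Blm is filled; in Variant 3, 27 lie left of 0 and none is filled.

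The member that fell in Variant 1 was Blm (chromosome 7, 80454733 to 80535119, minus strand), the helicase that unwinds recombination intermediates and is lost in Bloom syndrome. It lay at 6.59, 5.13 and 5.53 CPM in the sgNeo codes and at 1.67, 1.73 and 1.61 CPM in the sgSetd2 codes, which is -1.78 in log2 units (SE 0.39, adjusted p = 0.0491, edgeR). The codes of each group lay close together and the groups did not overlap. Over single tumours the groups did overlap: sgNeo ran from 1.96 to 10.6 CPM with a median of 3.45, and sgSetd2 from 0 to 2.88 CPM with a median of 1.37. In Variant 3 Blm lay at 6.00, 2.34 and 2.90 CPM with sgNeo and at 5.14, 2.65 and 4.40 CPM with sgSetd2 (0.12, SE 0.38, adjusted p = 0.932). The Variant 1 call passed in 3 of 13 other settings of the analysis and in 18 of 48 fits that left out 1 code or tumour, with adjusted p between 0.00045 and 1. Leaving out CE433, CE450, CE456, CE467, CE468, CE472, CE475, CE479 or CE483 ended it, with the highest adjusted p, 0.2, without CE483. Of single tumours, leaving out tumour 1 of CE467 gave the highest, 0.19, and a log2 fold change of -1.39. A test with the sex of the code as a covariate gave -1.71 (adjusted p = 0.11). Without the 4 tumours with Col1a1 above 10 CPM, which lead the fibroblast markers, it was -1.63 (adjusted p = 0.1) and the median of all members was -0.54.

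A list of 30 S and G2/M phase genes moved with the same contrast. In Variant 1 its 30 members were all negative, 6 of them fell, and its median was -1.48, against -0.27 in Variant 3, where 0 passed. The mean log2-CPM of that list per tumour ran from 1.51 to 5.30 with a median of 3.70 in Variant 1 sgNeo and from 1.94 to 3.42 with a median of 3.00 in Variant 1 sgSetd2. In Variant 3 the medians were 3.47 with sgNeo and 3.47 with sgSetd2. With the list's mean as a covariate, the median of the 41 members in Variant 1 was -0.37, 28 were negative and 0 passed, and Blm came to -0.47. That fit called 0 of all 20009 genes in Variant 1.

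Of the mismatch repair genes none passed a guide contrast by edgeR with the filter as first described, while Exo1 was called in Variant 1 by DESeq2 and with the stricter filter, and averaged over the variants by DESeq2. Exo1, the exonuclease that excises the mismatched strand and also resects breaks, lay at 8.43, 7.13 and 3.93 CPM in the Variant 1 sgNeo codes and at 1.13, 1.23 and 0.259 CPM in the sgSetd2 codes. The groups did not overlap, yet its log2 fold change of -2.89 (SE 0.71) had an adjusted p of 0.0732 by edgeR. In Variant 3 the sgNeo codes, at 7.83, 2.01 and 1.47 CPM, spanned all 3 sgSetd2 codes, at 3.51, 3.91 and 4.22 CPM (0.04, adjusted p = 0.986). Msh3, which recognises insertion and deletion loops, lay at 34.6, 30.6 and 34.1 against 22.6, 22.6 and 22.9 CPM in Variant 1 (-0.55, SE 0.22, adjusted p = 0.236). Its Variant 3 codes overlapped, at 21.6, 35.2 and 24.0 against 26.8, 27.2 and 16.4 CPM. Msh6, the H3K36me3-binding mismatch factor (chromosome 17, 87975062 to 87990892), lay at 42.1, 34.3 and 37.6 against 33.05, 36.9 and 26.8 CPM in Variant 1. The groups overlapped, and the log2 difference was -0.24 (SE 0.22, adjusted p = 0.683). In Variant 3 Msh6 lay at 22.2, 25.3 and 23.4 CPM with sgNeo and at 32.2, 43.4 and 21.0 CPM with sgSetd2 (0.45, SE 0.22, adjusted p = 0.378). Its lowest sgSetd2 code was CE456, the one whose Setd2 level was inside the sgNeo range. A link between Setd2 and Msh6 levels was not tested. Pms2, the endonuclease subunit of the MutL complex, lay between 5.93 and 16.7 CPM over the 12 codes with overlapping groups in both variants.

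In homologous recombination the large differences in Variant 1 lay in genes of low level. Brca1, which promotes end resection and loading of the recombinase, lay at 9.78, 7.02 and 12.9 CPM with sgNeo and at 1.55, 3.69 and 0.962 CPM with sgSetd2. The codes did not overlap, and the fold change was -2.26 in log2 units (SE 0.67, adjusted p = 0.127, edgeR). In Variant 3 Brca1 lay at 6.996, 1.70 and 7.59 against 3.79, 3.87 and 1.13 CPM (-0.89, adjusted p = 0.576). Brca2, the recombinase loader, lay at 6.81, 3.91 and 6.72 against 2.01, 2.89 and 0.897 CPM in Variant 1 (-1.59, SE 0.44, adjusted p = 0.101), also without overlap. Its Variant 3 values, 3.96, 4.74 and 4.56 against 3.16, 4.78 and 6.87 CPM, overlapped (0.16, adjusted p = 0.916). Rad51b, a paralogue of the strand exchange recombinase, lay at 0.952, 1.41 and 0.309 against 0.187, 0.105 and 0.0540 CPM in Variant 1 (-2.94, SE 0.85, adjusted p = 0.12). Its levels are near the limit of detection and its groups did not overlap in Variant 1, while in Variant 3 they overlapped at 1.24, 0.357 and 0.499 against 0.379, 0.498 and 0.183 CPM. Xrcc2, another such paralogue, was the 1 member whose sgSetd2 codes lay below its sgNeo codes in each variant. It lay at 3.48, 4.41 and 4.55 against 3.17, 1.92 and 2.45 CPM in Variant 1, and at 4.39, 4.08 and 4.59 against 3.16, 2.87 and 3.26 CPM in Variant 3. Its log2 fold changes were -0.72 (SE 0.27, adjusted p = 0.216) and -0.49 (SE 0.27, adjusted p = 0.426), so neither passed by edgeR, and DESeq2 called it in Variant 1. Palb2 also stood apart in Variant 1, at 3.04 to 3.90 against 1.15 to 2.80 CPM. Rad54l stood apart there as well, at 6.17, 5.67 and 4.44 against 2.11, 1.55 and 2.51 CPM (-1.40, SE 0.61, adjusted p = 0.287). In Variant 3 its codes overlapped, at 7.99, 3.38 and 0.761 against 3.36, 3.74 and 2.76 CPM (-0.30, adjusted p = 0.885).

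The break-end processing genes Rbbp8, Mre11a, Rad50 and Nbn differed less. Rbbp8, which encodes CtIP, lay at 57.5, 40.4 and 58.0 against 48.1, 52.1 and 50.2 CPM in Variant 1 and at 47.2, 36.1 and 38.6 against 48.0, 49.9 and 38.8 CPM in Variant 3. Groups overlapped in Variant 1 and in Variant 3, and the log2 fold changes were -0.05 (SE 0.16, adjusted p = 0.929) and 0.17 (SE 0.16, adjusted p = 0.713). Mre11a, the nuclease of the MRN complex, lay at 20.5, 12.2 and 16.7 against 12.5, 11.9 and 10.8 CPM in Variant 1 (-0.49, SE 0.21, adjusted p = 0.288). In Variant 3 it lay at 16.5, 12.4 and 10.3 against 15.8, 16.9 and 16.3 CPM (0.32, SE 0.21, adjusted p = 0.523). Rad50, the ATPase of the complex, lay at 43.2, 34.5 and 53.3 against 46.2, 39.5 and 24.2 CPM in Variant 1 and at 39.96, 44.4 and 41.5 against 41.5, 39.5 and 31.5 CPM in Variant 3, with overlapping groups (-0.25 and -0.16, adjusted p = 0.658 and 0.817). Nbn varied least, from 35.1 to 48.8 CPM, and in Variant 3 its sgSetd2 codes, at 35.1 to 38.5 CPM, lay below its sgNeo codes at 39.9 to 41.7 CPM (-0.15, SE 0.11, adjusted p = 0.591). Bard1, the partner of BRCA1, was nearly absent, at 0.0614, 0.751 and 0.397 against 0.0561, 0.00878 and 0.173 CPM in Variant 1 and 0.559, 0.554 and 0.661 against 0.453, 0.0151 and 0.0625 CPM in Variant 3. Its sgSetd2 codes lay below its sgNeo codes in Variant 3 only, without passing (-1.75, adjusted p = 0.589, edgeR). That was the lowest log2 fold change of the 41 members in Variant 3. Rad51c, Rad51d, Rad52 and Xrcc3 had overlapping groups in each variant.

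Fanci, a Fanconi anaemia gene whose product is ubiquitinated with FANCD2 at crosslinks, was the only member whose codes stood apart in opposite directions in the variants. In Variant 1 it lay at 3.55, 3.23 and 6.53 CPM with sgNeo and at 1.54, 1.65 and 1.91 CPM with sgSetd2 (-1.382, SE 0.39, adjusted p = 0.109). In Variant 3 it lay at 0.880, 1.93 and 1.17 CPM with sgNeo and at 3.01, 2.90 and 2.95 CPM with sgSetd2 (1.16, SE 0.39, adjusted p = 0.179). The codes stood apart in each variant, lower with sgSetd2 in Variant 1 and higher in Variant 3. The test of that difference gave 2.54 (SE 0.55, unadjusted p = 0.000675, adjusted p = 0.497 by edgeR), which does not pass over all genes. DESeq2 called it, as it did no other member. Over single tumours the groups overlapped, from 0.840 to 7.13 against 0.297 to 2.76 CPM in Variant 1 and from 0.135 to 3.23 against 0.714 to 5.10 CPM in Variant 3. Of Fanci's exon length 16.0% is shared with Polg on the opposite strand, and a strand setting of the count is not stated. Fanca, of the core complex, lay at 6.75, 1.88 and 3.13 against 0.711, 1.54 and 0.724 CPM in Variant 1 (-1.98, SE 0.58, adjusted p = 0.123) and at 3.26, 2.86 and 1.14 against 1.34, 2.37 and 1.94 CPM in Variant 3 (-0.36, adjusted p = 0.844). Fancb, also of the core complex, lay at 7.90, 6.28 and 7.11 against 3.00, 4.39 and 1.16 CPM in Variant 1 (-1.32, SE 0.46, adjusted p = 0.181), and its Variant 3 groups overlapped at 4.85, 5.44 and 3.09 against 5.68, 4.77 and 2.55 CPM. Fancd2 lay at 5.89, 1.22 and 5.43 against 1.77, 2.56 and 1.72 CPM in Variant 1 (-1.05, SE 0.60, adjusted p = 0.437) and at 5.57, 1.25 and 3.58 against 2.91, 2.94 and 4.295 CPM in Variant 3 (-0.03, adjusted p = 0.989), overlapping in each variant. Fancm, the translocase that remodels stalled forks, lay at 16.5, 9.25 and 17.2 against 9.81, 9.997 and 9.87 CPM in Variant 3 (-0.53, SE 0.29, adjusted p = 0.419).

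The end joining genes, save Polq and Lig4, had small differences in both variants. Xrcc5 lay at 73.3, 68.7 and 84.1 against 97.6, 80.3 and 88.3 CPM in Variant 1 and at 92.6, 79.9 and 82.0 against 96.1, 108.6 and 75.8 CPM in Variant 3. Its log2 fold changes were 0.24 (SE 0.15, adjusted p = 0.478) and 0.14 (SE 0.15, adjusted p = 0.729), and its groups overlapped. Xrcc6 (-0.05 and 0.16), Prkdc (0.06 and -0.06), the kinase that Ku recruits, Xrcc4 (-0.15 and -0.08), the ligase scaffold, and Trp53bp1 (-0.30 and 0.12), which protects ends from resection, had adjusted p between 0.53 and 0.957. Lig4, the ligase of the pathway, lay at 8.88, 15.3 and 14.4 against 7.46, 9.90 and 7.498 CPM in Variant 1 (-0.64, SE 0.24, adjusted p = 0.213) and at 10.2, 13.01 and 9.06 against 11.99, 12.6 and 14.6 CPM in Variant 3 (0.28, SE 0.24). Polq, the polymerase of microhomology-mediated joining, lay at 1.90, 0.533 and 2.05 against 0.271, 0.421 and 0 CPM in Variant 1 (-2.68, SE 1.55, adjusted p = 0.439). Its Variant 3 codes lay at 0.394, 1.21 and 4.69 CPM with sgNeo and at 2.495, 0.0252 and 0.635 CPM with sgSetd2, and its SE in Variant 1 was the largest of the 41 members.

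The PARP genes, whose products mark single-strand breaks with ADP-ribose, had small SEs. Parp2 lay at 31.4, 35.2 and 41.1 against 26.6, 25.7 and 23.6 CPM in Variant 1, with no overlap, and at 33.2, 28.3 and 36.2 against 25.5, 23.8 and 32.8 CPM in Variant 3. Its log2 fold changes were -0.51 (SE 0.16, adjusted p = 0.138) and -0.25 (SE 0.16, adjusted p = 0.5). Parp1 lay at 45.2, 32.3 and 49.2 against 28.4, 32.3 and 23.7 CPM in Variant 1 (-0.59, SE 0.20, adjusted p = 0.178) and at 35.9, 28.7 and 33.2 against 28.0, 33.1 and 21.2 CPM in Variant 3 (-0.25, adjusted p = 0.63), overlapping in each variant.

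Of the signalling genes none passed a guide contrast by edgeR with all codes. In the average over the variants Chek1 was called by voom with code as a random block, and by edgeR without CE479. H2afx (chromosome 9, 44334694 to 44336077) lay at 24.5, 28.9 and 21.2 against 14.4, 16.0 and 14.5 CPM in Variant 1, without overlap (-0.73, SE 0.24, adjusted p = 0.158, edgeR). In Variant 3 its codes overlapped, at 24.6, 11.4 and 18.7 against 19.3, 17.4 and 22.0 CPM (0.10, adjusted p = 0.904). Mdc1, the adaptor that reads phosphorylated H2AX, stood apart in Variant 1 at 10.95, 8.945 and 11.1 against 6.455, 7.095 and 4.43 CPM (-0.78, SE 0.32, adjusted p = 0.253). In Variant 3 it overlapped, at 13.2, 7.51 and 8.76 against 7.996, 9.21 and 4.25 CPM (-0.46, adjusted p = 0.552). Atm also stood apart in Variant 1, at 10.5, 11.4 and 14.4 against 10.1, 7.20 and 7.37 CPM (-0.56, SE 0.20, adjusted p = 0.203, edgeR). Chek2 overlapped in Variant 1, at 16.1, 25.2 and 20.8 against 17.0, 9.98 and 13.1 CPM (-0.63, adjusted p = 0.209), and in Variant 3, at 24.4, 16.3 and 17.9 against 17.5, 14.9 and 16.3 CPM. Chek1, the effector kinase of ATR, stood apart in Variant 3 at 5.89, 7.33 and 5.13 against 2.16, 4.04 and 4.82 CPM (-0.73, SE 0.51, adjusted p = 0.555). Atr lay between 14.7 and 32.1 CPM over the codes. Wee1, the kinase that holds CDK1 inactive (chromosome 7, 110122046 to 110143286), lay at 28.0, 23.9 and 45.1 against 53.3, 25.1 and 37.5 CPM in Variant 1 (0.26, SE 0.48, adjusted p = 0.865). In Variant 3 it lay at 20.9, 46.1 and 25.4 against 14.7, 46.3 and 14.4 CPM (-0.29, SE 0.48, adjusted p = 0.852). Codes of 1 group differed by more than the groups did in each variant.

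In Variant 3 as a whole, 0 of the 41 members passed by edgeR, where 1.49% of all genes did, and 1 had an unadjusted p under 0.05, against 15.1% of all genes. The median was -0.15, with all genes at 0.02, and 27 members were negative. The sgSetd2 codes lay below the sgNeo codes in 4 members (8.96% of all genes) and above in 1 (10% of all genes). DESeq2 called 1 member, Fanci, and 6.65% of all genes. Without CE456 the median was -0.14 and again 0 passed. Averaged over the variants, 0 members passed where 7.35% of all genes did, 15 had an unadjusted p under 0.05 (22.9% of all genes), 37 were negative, and the median was -0.34. The smallest adjusted p in that average were 0.0631 for Parp2 (-0.38, SE 0.11), 0.0639 for Brca1 (-1.57, SE 0.46) and 0.0643 for Rad51b (-1.96, SE 0.58). DESeq2 called 7 members (Blm, Brca1, Exo1, Fanca, Parp2, Rad51b and Xrcc2), where it called 14.5% of all genes. The stricter filter gave Brca1 and Rad51b, with 13.1% of all genes called, and voom gave Brca1, Chek1 and Polq, with 13.7%. These 2 counts lie below the share of all genes.

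The contrasts between the variants share these same samples. Between Variant 3 and Variant 1 with sgNeo, 0 members passed (0.005% of all genes did), 2 had an unadjusted p under 0.05 (10.4% of all genes), and the median was -0.16. Msh6, Fancb and Fanci had all Variant 3 sgNeo codes below all Variant 1 sgNeo codes, Msh6 at 22.2 to 25.3 against 34.3 to 42.1 CPM (-0.69, SE 0.22, adjusted p = 0.364, edgeR). The share of all genes apart in this way was not counted for this contrast. These 3 of 41 members therefore cannot be set against it and are a description only. Between the variants with sgSetd2, 0 members passed (0.13% of all genes did), 6 had an unadjusted p under 0.05 (9.7% of all genes), and the median was 0.28. Positive values numbered 32 of 41 here and 9 of 41 with sgNeo. All Variant 3 sgSetd2 codes lay above all Variant 1 sgSetd2 codes in 9 members and below them in 1. The share of all genes was not counted for this contrast either. The test of whether the guide contrast differs between the variants called 0 members and 0.0% of all genes, with 7 members at an unadjusted p under 0.05 (6.0% of all genes) and 35 of 41 positive. Its median was 0.35, with all genes at 0.04, and its smallest adjusted p was 0.497. DESeq2 called Fanci with sgNeo (1.96% of all genes), Blm and Exo1 with sgSetd2 (2.42% of all genes), and Fanci in the test of the difference (0.57% of all genes). For the cell cycle list the interaction had a median of 1.28, with 30 of 30 genes positive and 0 passing.

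**Figure D2:**
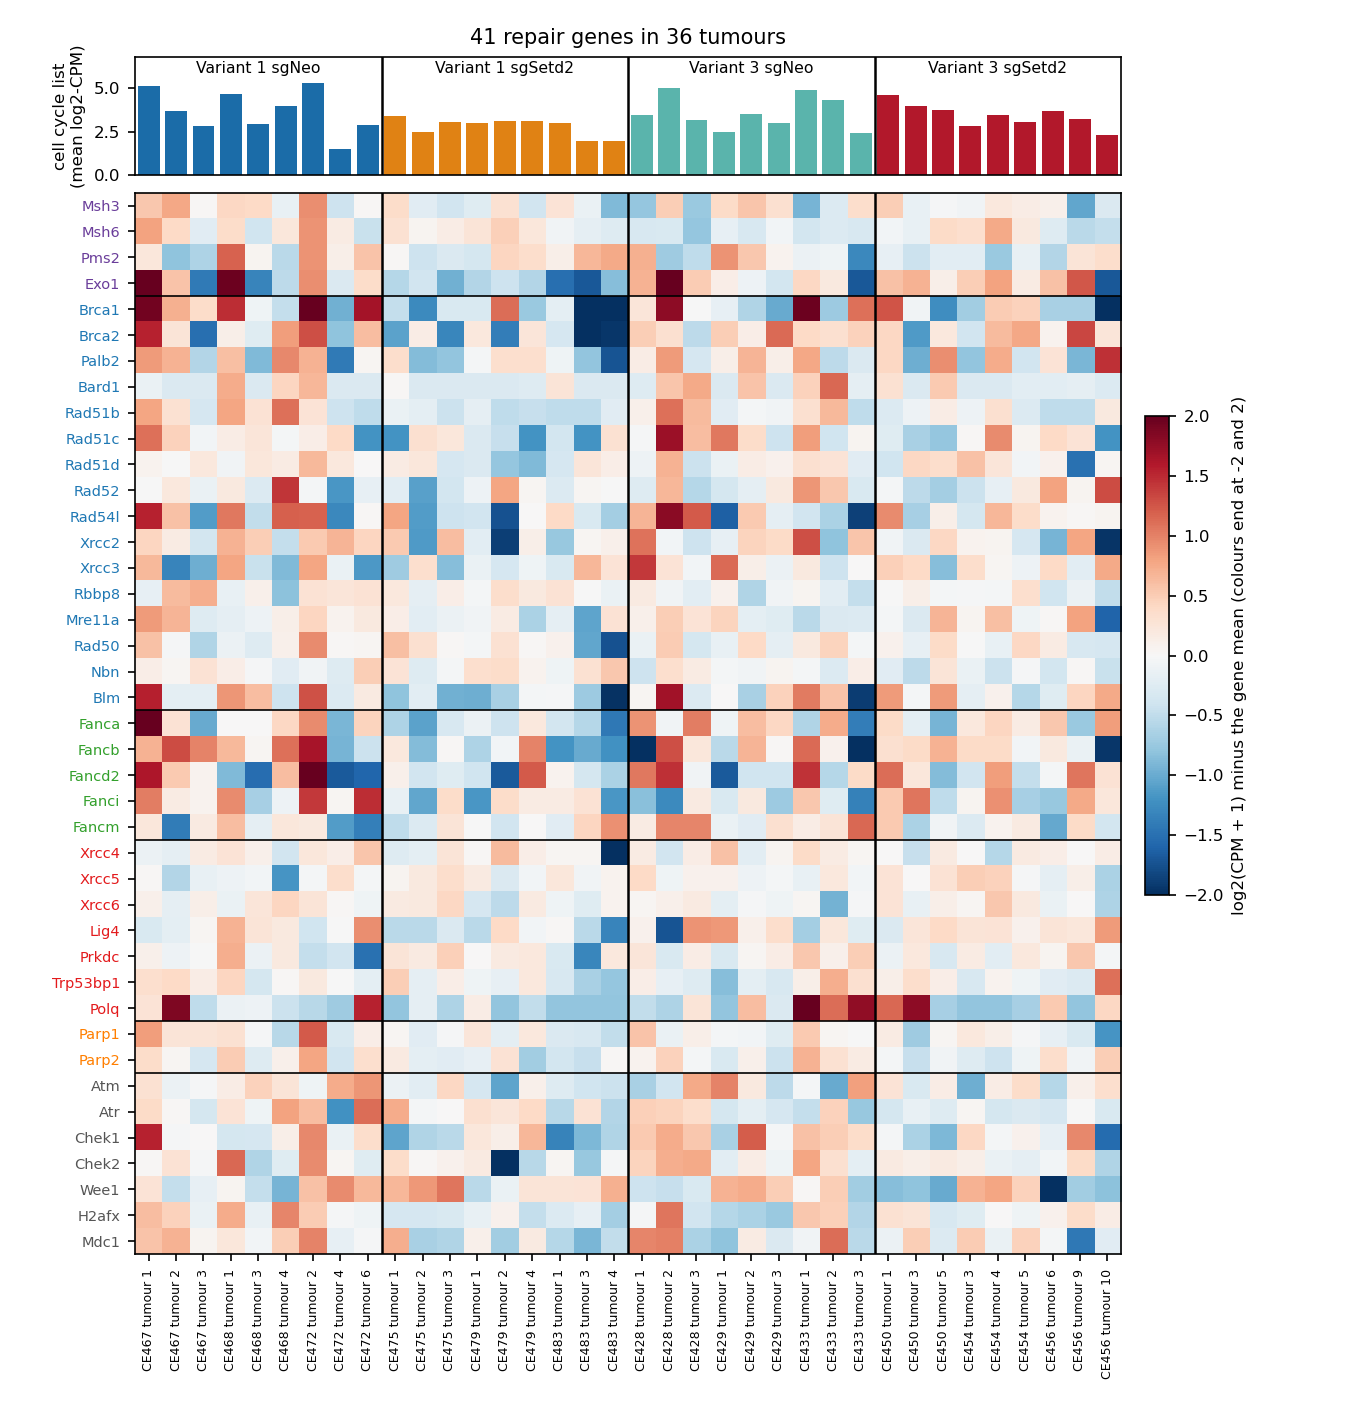
Level of each member (rows, by class) in each of the 36 tumours (columns, by group and code) as log2(CPM + 1) minus the gene's mean over tumours, with colours ending at -2 and 2; bars on top give the mean log2-CPM of the 30 cell cycle genes. Rows such as Fancd2, Brca1, Exo1 and Fancb carry strong colours, which differ between tumours of 1 code as well as between groups. Rows such as Nbn, Rbbp8 and Xrcc6 are pale.

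Tumours of the same code and so the same guide and variant differed widely in the cell cycle list, by up to 3.79 on the log2 scale in CE472 and by as little as 0.14 in CE479. The slope of each member on that list was therefore estimated within codes, over all 36 tumours, in a fit that uses no difference between groups. Of the 41 members 11 had a positive slope and 0 a negative one at an adjusted p under 0.05 (edgeR's quasi-likelihood test over 16285 genes). The same test called 17.0% of all genes in either direction and 8.93% with a positive slope. The median slope was 0.26 log2 units per log2 unit of the list, with all genes at 0.01, and 34 of 41 slopes were positive. By class 2 of 4 mismatch repair genes, 4 of 16 homologous recombination genes, 2 of 5 Fanconi anaemia genes, 0 of 7 end joining genes, 2 of 2 PARP genes and 1 of 7 signalling genes passed. The slopes of the 7 end joining genes ran from -0.30 to 0.06 with a median of -0.02, and 0 of them had an unadjusted p under 0.05, where 29.3% of all genes did.

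**Figure D3:**
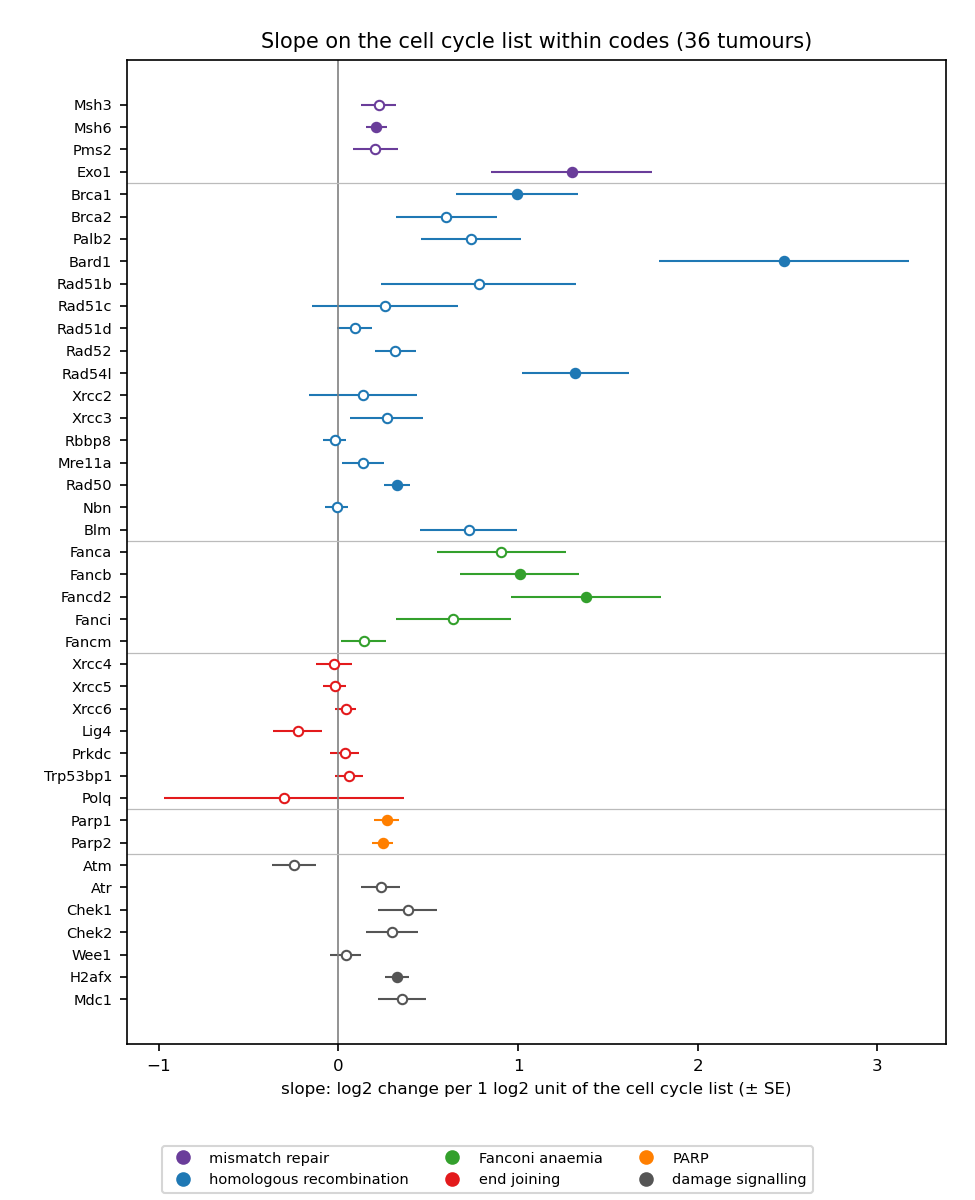
Slope of each member on the mean log2-CPM of the 30 cell cycle genes within codes, with bars of 1 SE, grouped by class; filled points passed at an adjusted p under 0.05. The 11 filled points all lie right of 0, from 0.21 (Msh6) to 2.48 (Bard1), and the 7 end joining genes are all open.

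The steepest slopes belonged to genes of low level. Bard1 had a slope of 2.48 (SE 0.70, adjusted p = 0.014), Fancd2 1.378 (SE 0.42, adjusted p = 0.0222), Rad54l 1.32 (SE 0.30, adjusted p = 0.00289) and Exo1 1.30 (SE 0.45, adjusted p = 0.0445). Rad54l (chromosome 4, 116094264 to 116123690, minus strand), the translocase that drives strand exchange and whose promoter is printed above, lay at 7.24 CPM in the CE472 tumour with the highest list mean (5.30) and at 0.487 CPM in the one with the lowest (1.51). In CE467 it lay at 9.63, 4.496 and 0.691 CPM in tumours whose list means were 5.12, 3.70 and 2.81. Exons of Rad54l overlap Lrrc41 on the opposite strand over 15.4% of their length. Fancb (1.01, SE 0.33, adjusted p = 0.0361) and Brca1 (1.00, SE 0.34, adjusted p = 0.0424) had slopes near 1.

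Members of higher level had shallower slopes with smaller errors. H2afx had a slope of 0.33 (SE 0.07, adjusted p = 0.00147), and in CE428 it lay at 17.8, 39.2 and 13.7 CPM in tumours with list means of 3.47, 5.005 and 3.15. Rad50 had 0.32 (SE 0.07, adjusted p = 0.00233), Parp1 0.27 (SE 0.07, adjusted p = 0.00812), Parp2 0.25 (SE 0.06, adjusted p = 0.00559) and Msh6 0.21 (SE 0.06, adjusted p = 0.0109). Rad50 lay at 72.7 CPM in the CE472 tumour with the highest list mean and at 37.9 and 38.2 CPM in the other tumours of that code. Xrcc5 in contrast lay at 80.3 CPM in that tumour and at 106 and 80.4 CPM in the others, with a slope of -0.02 (SE 0.06, adjusted p = 0.87). Rbbp8 (-0.02), Nbn (-0.01), Wee1 (0.04) and Atm (-0.25, SE 0.12, adjusted p = 0.181) did not pass either.

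**Figure D4:**
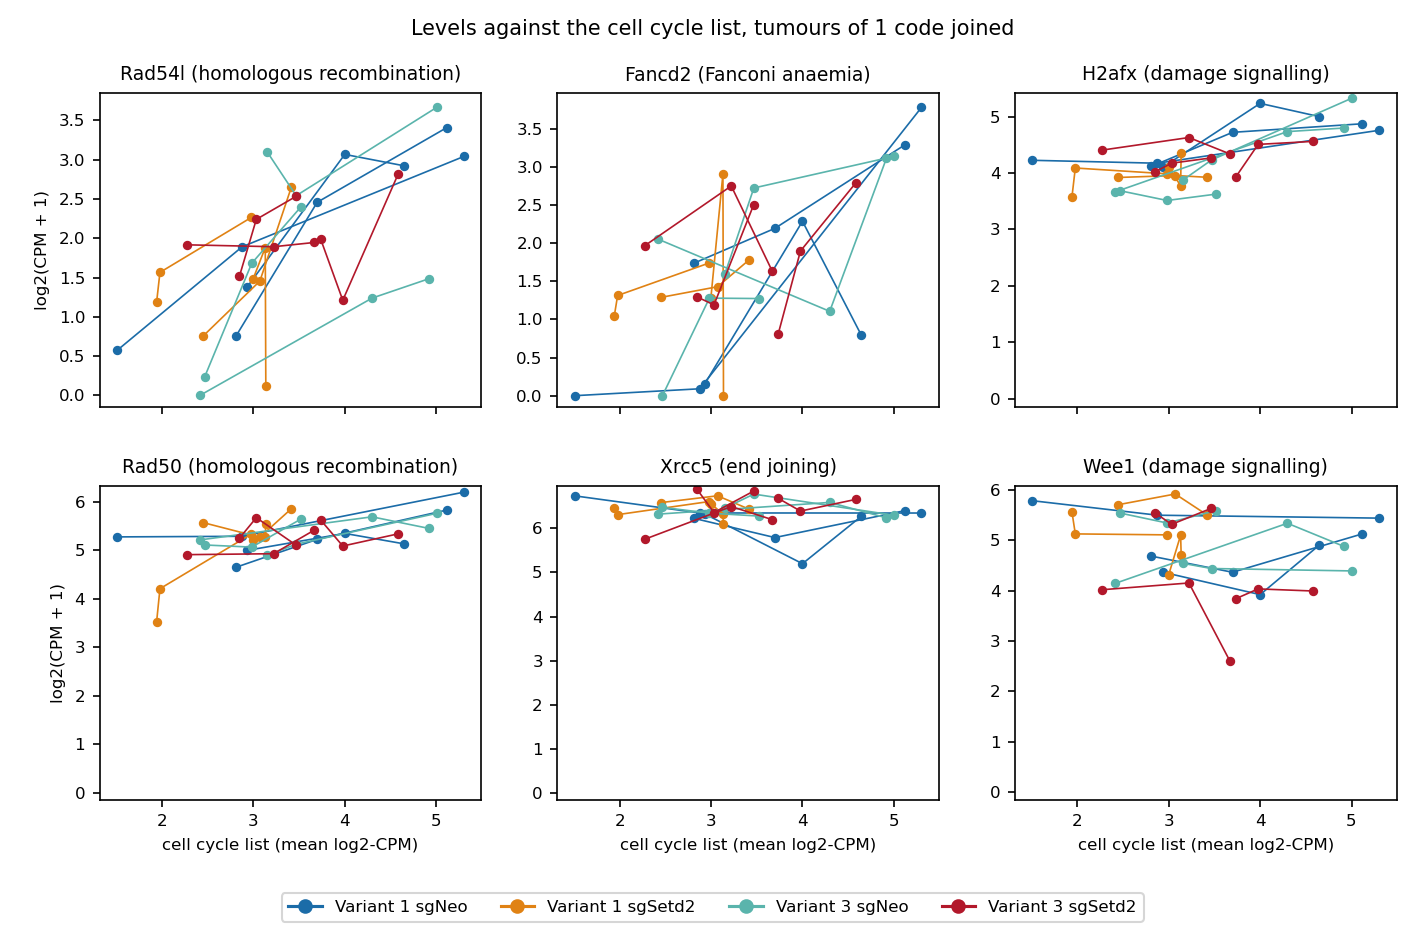
Log2(CPM + 1) of 6 members in each of the 36 tumours against the mean log2-CPM of the 30 cell cycle genes, with tumours of 1 code joined and coloured by group. Lines rise to the right in Rad54l, Fancd2, H2afx and Rad50, which passed the slope test, and run level in Xrcc5 and Wee1, which did not.

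H2afx, Rad50 and Rad54l passed in all 9 other settings and in all 48 fits without 1 code or tumour. The count of members that passed was 4 without code CE472 and 5 without its tumour 2, whose list mean was the highest of all 36. Without CE472 the slopes of Bard1 (2.30, adjusted p = 0.095), Fancd2 (0.82, adjusted p = 0.23), Parp1 (0.18, adjusted p = 0.22), Parp2 (0.22, adjusted p = 0.072) and Msh6 (0.19, adjusted p = 0.066) kept their sign and missed the threshold. Brca1 and Exo1 each passed in 24 of the 48 fits and Fancb in 35.

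**Figure D5:**
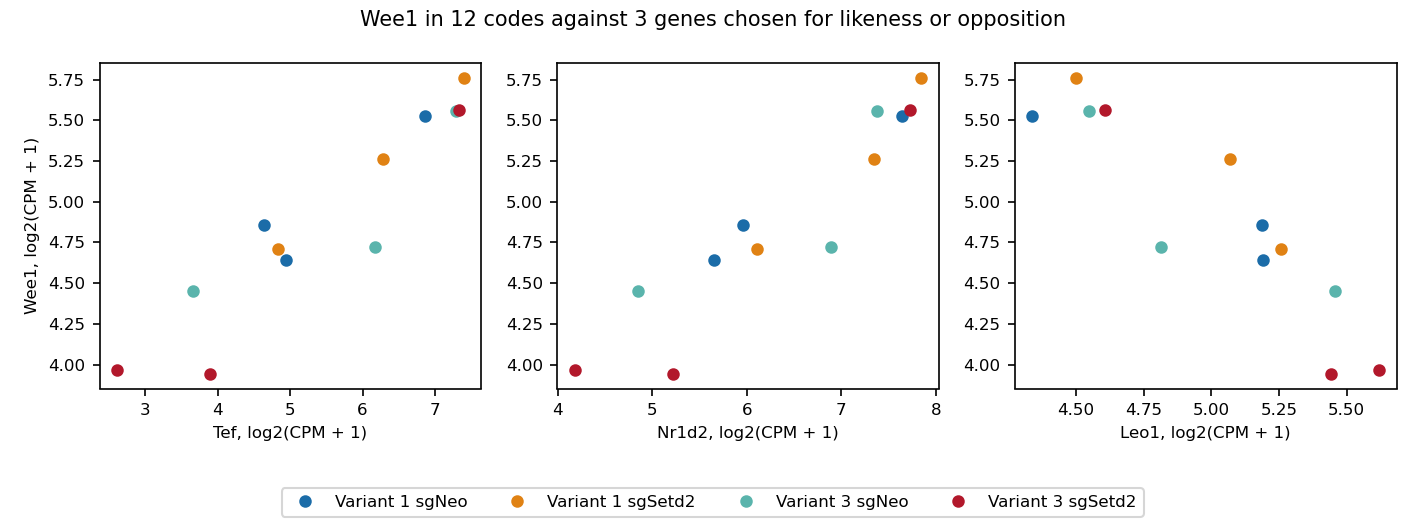
Wee1 in the 12 codes, in CPM, against Tef, Nr1d2 and Leo1, coloured by group. Codes with high Wee1 are high in Tef and Nr1d2 and low in Leo1 in each of the 4 groups.

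The members also differed in where their variation lay. Wee1 was the only member whose SD between codes of a group (0.69 on the log2(CPM + 1) scale) exceeded the SD between tumours of a code (0.39), a ratio of 1.77. The next were Prkdc (0.98) and Polq (0.95), and Blm was lowest (0.33). The SD between codes is that of means of 3 tumours, while the SD within codes is that of single tumours. A ratio below 1 therefore does not show that the codes were alike. Median SDs within codes were 0.37 for end joining, 0.36 for PARP, 0.50 for mismatch repair, 0.55 for damage signalling, 0.59 for homologous recombination and 0.77 for the Fanconi anaemia genes. Among 11669 genes with a mean of at least 1 CPM, the 5 whose level over the 12 codes was most like that of Wee1 included Cipc, Tef, Mettl7a1 and Nr1d2, with Pearson's r between 0.93 and 0.94 and Spearman's rho between 0.93 and 0.97. Tef encodes a PAR bZIP factor and Nr1d2 the nuclear receptor REV-ERB beta, both of which oscillate with the circadian clock, and Cipc encodes a repressor that interacts with CLOCK. Tef lay at 115, 167, 155 and 160.2 CPM in CE472, CE475, CE429 and CE454, where Wee1 lay at 45.1, 53.3, 46.1 and 46.3 CPM, and at 5.12 and 11.7 CPM in CE450 and CE428, where Wee1 lay at 14.7 and 20.9 CPM. Those 4 codes belong to 4 different groups. The most opposite genes were Timm10b, Leo1, Wdr45, Pam16 and Spaar, with r between -0.93 and -0.88. With the group means removed, r was 0.93 to 0.94 for Cipc, Tef, Mettl7a1 and Nr1d2 and -0.95 to -0.89 for the 5 opposite genes. Without the 2 codes farthest from the median of each gene, it was 0.89 to 0.95 and -0.90 to -0.83. Wee1 was singled out after its values were seen, these genes were picked for their correlation from many, and each point sums 3 tumours of a code, so the coefficients describe these 12 codes and carry no p.

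Another 101 DNA repair and damage response genes, 27 of them in excision repair, a pathway with no class among the members, were tested beside the members. In Variant 1, 4 of the 101 fell with sgSetd2 and 0 rose, with a median of -0.18. The same test called 0.72% of all genes lower there and 1.42% in either direction. Lig1, the ligase that seals nicks in replication and excision repair, fell from 23.0, 16.5 and 18.8 to 6.97, 8.24 and 5.53 CPM (-1.49, SE 0.22, adjusted p = 0.0142, edgeR). Rad51ap1, which aids strand invasion, fell from 6.43, 4.27 and 6.21 to 0.281, 1.00 and 0.908 CPM (-2.95, SE 0.48, adjusted p = 0.0195). Clspn, the mediator of CHEK1 activation, fell from 2.96, 1.42 and 3.90 to 0.430, 0.290 and 0.194 CPM (-3.17, SE 0.63, adjusted p = 0.0351). Ercc6, the transcription-coupled repair factor CSB, fell from 33.6, 48.8 and 45.9 to 24.0, 25.2 and 22.0 CPM (-0.85, SE 0.18, adjusted p = 0.0427). In Variant 3, 1 of the 101 rose and 0 fell: Ppm1d, the phosphatase that ends the damage response, lay at 50.8, 51.3 and 40.5 CPM with sgNeo and at 70.5, 77.1 and 69.2 CPM with sgSetd2 (0.60, SE 0.13, adjusted p = 0.0488). A single call among the 101 in Variant 3 is not above the background share, 1.49% of all genes. Averaged over variants, Lig1 (-1.20, adjusted p = 0.00133, edgeR), Ercc6 (-0.82, adjusted p = 0.00354), Rad51ap1, Clspn, Nthl1 and Rfc3 fell and 0 rose. These 6 of the 101 lie below the share of all genes called in that average, 7.35%. Lig1, Ercc6, Rad51ap1 and Rfc3 also had positive slopes on the cell cycle list that passed.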

How the data were processed

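RNA of sorted cells was made into libraries with a SMART-Seq mRNA kit, which does not mark strand, and sequenced, per the labels' protocols. The deposited table holds raw counts per gene, made by the authors with STAR 2.5.3a, R 4.2 and DESeq2 1.38.3, as the submitters' processing notes say. No counting tool, strand setting, build or annotation is named there (not given in the sources used here). Symbols, positions and exon lengths were taken from GENCODE M21 (GRCm38). Counts were summed over the 3 tumours of a code, filtered by filterByExpr, scaled by TMM and tested with edgeR 4.0.16 (glmQLFit, robust) in R 4.3.3. Alternatives used DESeq2 1.42.0 and limma 3.58.1. P-values were adjusted over all genes tested, and 0.05 was the threshold. SEs are the log2 fold change over the square root of F. Slopes were fitted to 36 tumours with a term per code, on the mean log2-CPM (prior count 2) of the cell cycle list. The fits were tested on simulated data. Members and lists were chosen with earlier results of these data known. One of the genes most like Wee1 is not reported here. Values per code are given for members that passed a test, for the 2 of each class with the smallest p in each guide contrast, and for Msh6, Rbbp8 and Wee1. No pair of libraries was identical. Depth per tumour was 17893071 to 137152480 counts, and reads without molecular identifiers are not independent molecules. Alternatives changed the scaling, the low-count filter, the tool, the unit and weight of tumours, the covariates, the groups fitted and the libraries kept.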

Additional observations from a re-analysis of the deposited data

Results flagged for a closer look

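Each of the 41 members and the mean of the cell cycle list were screened on a log2 scale in each group of 9 tumours for a highest or lowest tumour that stands apart, by Dixon's ratio of the gap to the range. Of 168 such groups 15 held one, and chance marks about 1 in 20. In Variant 1 sgNeo, Rad51c was at 0 CPM in tumour 6 of CE472, with the next tumour at 1.21 CPM, and Rad51d was highest in tumour 2 of the same code at 15.9 CPM, with the next at 11.6 CPM. In Variant 1 sgSetd2, tumour 4 of CE483 was lowest for Blm, at 0 CPM (next 1.01), and for the ligase scaffold gene Xrcc4, at 3.52 CPM (next 14.1). Tumour 3 of that code was lowest for Prkdc at 6.89 CPM (next 14.7), and tumour 2 of CE479 for the checkpoint kinase gene Chek2 at 0.552 CPM (next 8.68). In Variant 3 sgNeo, Msh6 was lowest in tumour 3 of CE428 at 16.8 CPM (next 22.7) and Xrcc6 in tumour 2 of CE433 at 21.8 CPM (next 37.4). In Variant 3 sgSetd2 all 7 such values came from CE456. Its tumour 10 was lowest for Exo1 (0 CPM, next 2.51), Mre11a (3.71 CPM, next 10.7) and Fancb (0.212 CPM, next 3.27) and highest for Trp53bp1 (92.5 CPM, next 54.6). Its tumour 9 was lowest for Msh3 (11.4 CPM, next 19.9), Rad51d (2.82 CPM, next 7.20) and Mdc1 (2.15 CPM, next 6.04). CE456 is the code labelled sgSetd2 whose Setd2 level was inside the sgNeo range, and a link of that level to these values was not tested.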

How the results depend on the processing

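In Variant 1 the count of members called, 1 as reported, was 8 with DESeq2 and 2 with the stricter filter, where 7.5% and 3.39% of all genes were called. It was 0 with RLE scaling (274 of 20009 genes called), upper-quartile scaling (302 of 20009) and no filter (284 of 33204). EdgeR on tumours (677 of 16315) and voom with code as a random block (419 of 16315) gave 0 as well. The mean and the median log2-CPM per code also gave 0, with 201 and 147 of 20009 genes called. So did the cell cycle covariate (0 of 20009), the sex covariate (102 of 20009) and the fit without the Col1a1-high tumours (281 of 19715). DESeq2 called 1 member in Variant 3, 7 averaged over the variants, 1 and 2 between the variants with sgNeo and sgSetd2, and 1 for the interaction, where edgeR called 0 in each; the shares of all genes were 6.65%, 14.5%, 1.96%, 2.42% and 0.57%. The averaged contrast gave 2 members with the stricter filter and 3 with voom, against 13.1% and 13.7% of all genes. Leaving out 1 code or tumour gave 0 to 2 members in Variant 1, 0 to 2 averaged, 0 to 0 in Variant 3, between the variants and for the interaction, and 4 to 16 for the slope. The shares of all genes in those fits were 0.0741% to 2.48% in Variant 1, 3.38% to 8.41% averaged and 0.373% to 1.62% in Variant 3. They were at most 0.239% between the variants and for the interaction, and 9.6% to 18.7% for the slope. The slope count was 8 to 16 under the other settings, with 6.3% to 22.8% of all genes called.

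Besides the codes named above, the Blm call ended without tumour 1 of CE428, CE429, CE433, CE467, CE468, CE475, CE479 or CE483, tumour 2 of CE433, CE472 or CE479, tumour 3 of CE428, CE429, CE433, CE450, CE475 or CE483, tumour 4 of CE454 or CE483, and tumours 6 and 9 of CE456, with adjusted p between 0.051 and 0.19. The slope calls also ended for Msh6 without CE467 (0.18, adjusted p = 0.054), for Msh6, Bard1, Parp1 and Fancd2 without tumour 2 of CE472 (adjusted p = 0.18, 0.095, 0.16 and 0.2), and for Fancd2 without tumour 4 or 6 of CE472 (adjusted p = 0.091 and 0.052).

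With the cell cycle covariate 9 of the 41 members turned from negative to positive in Variant 1 and 1 the other way, and 11 turned positive in the average. The values below cover only the members that the naming rule selects in a contrast, and all that changed sign were uncalled. With the cell cycle covariate they were Rbbp8 0.317, Polq 1.988 and Wee1 -1.398 in Variant 1, and Brca1 0.076 and Polq 0.472 averaged. By median per code they were Msh3 0.159 and Rbbp8 -0.027 in Variant 3, and Rbbp8 -0.091 averaged. Averaged, Rbbp8 was -0.009 with edgeR on tumours and -0.037 without the Col1a1-high tumours, and Fancb 0.138 with voom. Leaving out 1 code or tumour, Rbbp8 ran from -0.212 to 0.035 in Variant 1 and from -0.022 to 0.117 averaged. Wee1 ran from -0.051 to 0.574 in Variant 1, from -1.084 to 0.12 in Variant 3 and from -0.414 to 0.188 averaged. Msh3 in Variant 3 ran from -0.333 to 0.044 and Msh6 averaged from -0.033 to 0.221. The cause of these changes was not tested. No paired analysis was possible because tumour numbers only name tumours within a code and the groups hold different codes. Depth limits Bard1, Rad51b and Polq most, which had no count in 16, 7 and 9 of the 36 tumours. Since the kit does not mark strand, reads of a gene and of an overlapping antisense gene cannot be told apart.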

Other observations

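The 101 other repair genes were set against the cell cycle list in the same way as the members, within codes. Of these, 29 had a positive slope and 3 a negative one at an adjusted p under 0.05 (edgeR). The same test called 17.0% of all genes in either direction and 8.93% with a positive slope. Replication-linked genes of mismatch repair led the count, with 9 of 14 positive, among them Lig1 (0.76, SE 0.12), Pold1 (0.46, SE 0.09), a subunit of polymerase delta, and the clamp gene Pcna (0.24, SE 0.06). The steepest were Neil3 (2.54, SE 0.51, adjusted p = 0.000997), a glycosylase of the base excision pathway, Rad51ap1 (1.86), Rad54b (1.64), Eme1 (1.18) and the phosphatase gene Cdc25c (1.10). The 3 negative slopes were those of Zswim7 (-0.60, SE 0.19, adjusted p = 0.0299), the helicase gene Wrn (-0.27, SE 0.08, adjusted p = 0.0227) and Mad2l2 (-0.17, SE 0.04, adjusted p = 0.00348), a subunit of the shieldin complex. Of 13 other end joining genes 2 were positive, Tdp2 (0.23) and Lig3 (0.39), and 1 negative, Mad2l2. Of 27 excision repair genes 3 were positive, Neil3, Ercc6 (0.44) and the endonuclease gene Apex1 (0.39). The positive counts in end joining and excision repair are near the share of all genes. Psip1, which encodes the H3K36me3 reader LEDGF, had log2 fold changes with sgSetd2 of -0.18 (SE 0.21) in Variant 1 and 0.77 (SE 0.21, adjusted p = 0.105) in Variant 3, and the difference between these did not pass (0.95, SE 0.30, adjusted p = 0.684).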
